A study of Rattus norvegicus with 15 samples.

Results

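The 10 genes described here encode feedback brakes on the ERK cascade, except Phlda1, which was included as a gene that ERK signalling induces. They were followed across the striatum of 15 rats. They are the dual-specificity phosphatase genes Dusp1, Dusp2, Dusp4, Dusp5 and Dusp6, the Sprouty genes Spry1, Spry2 and Spry4, the Sprouty-related gene Spred1, and Phlda1. Each was taken as the array transcript annotated with that symbol alone, and each symbol matched exactly 1 of the 36685 transcripts in the table, of which 18511 carried a single symbol. The arrays were Affymetrix Rat Gene 2.0 ST arrays, with 1 array for each of 3 rats in each of 5 groups, all adult male Sprague-Dawley rats. Normal rats had a sham operation. PD rats had a unilateral lesion made with 6-OHDA, a toxin of dopamine neurons, in the right medial forebrain bundle and received no L-DOPA. LID rats had the same lesion and daily L-DOPA, given with benserazide, for 3 weeks, which produced dyskinesia, the involuntary movements that follow repeated L-DOPA. LID + Vehicle and LID + PD98059 rats had the lesion and the L-DOPA of the LID group, and also carried a cannula in the lateral ventricle. Vehicle or the MEK inhibitor PD98059 was infused through it for 12 days from day 10, before the L-DOPA dose of each of those days. All 3 L-DOPA groups were made up of rats that had developed complete dyskinesia by day 10, before any infusion. The paper reports that PD98059 then lowered the dyskinesia scores, and lowered phosphorylated ERK in the striatum of other rats of that group. The methods describe that cannula for the infused groups only, so infusion and cannula cannot be told apart in comparisons with LID, and the vehicle itself held solvent and detergent. RNA came from the striatum of the lesioned side, and only lesioned rats that passed a turning test for a full lesion were used. The paper took tissue some hours after the last L-DOPA dose, a time it states for its perfused rats and does not repeat for those of the arrays. Changes that came and went before then were not measured.

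ERK1 and ERK2 are kinases switched on by MEK, which Ras and Raf activate downstream of growth factor and dopamine receptors. Active ERK turns on a set of genes whose proteins then damp the same cascade. Dual-specificity phosphatases strip the activating phosphates from MAP kinases, whereas Sprouty and Spred proteins act higher up, on signalling from receptors to Ras and Raf. In the dopamine-denervated striatum L-DOPA is known to activate ERK in projection neurons of the direct pathway, and MEK inhibitors are known to lower that activation. The transcripts of these genes are therefore often read as a trace of recent ERK activity, although several are also induced by other signals.

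The promoters of Dusp1, Dusp5, Dusp6 and Phlda1 are printed because these members had the largest differences between LID + PD98059 and LID + Vehicle. Each runs 5′ to 3′ from 250 bases before to 50 bases after the transcript start in RefSeq, build GRCr8. Capitals mark matches, on either strand, to the CRE palindrome TGACGTCA and its shorter core TGACG, which CREB binds, to the CArG box, which serum response factor binds, or to the ETS core CCGGAA.
Dusp1 (chr10:17184603-17184902, + strand): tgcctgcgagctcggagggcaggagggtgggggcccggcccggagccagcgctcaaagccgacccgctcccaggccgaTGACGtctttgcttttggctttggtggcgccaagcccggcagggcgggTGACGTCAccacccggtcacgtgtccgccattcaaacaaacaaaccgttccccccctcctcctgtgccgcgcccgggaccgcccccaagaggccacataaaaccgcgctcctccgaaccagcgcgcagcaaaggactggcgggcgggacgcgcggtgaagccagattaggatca
Dusp5 (chr1:262543524-262543823, + strand): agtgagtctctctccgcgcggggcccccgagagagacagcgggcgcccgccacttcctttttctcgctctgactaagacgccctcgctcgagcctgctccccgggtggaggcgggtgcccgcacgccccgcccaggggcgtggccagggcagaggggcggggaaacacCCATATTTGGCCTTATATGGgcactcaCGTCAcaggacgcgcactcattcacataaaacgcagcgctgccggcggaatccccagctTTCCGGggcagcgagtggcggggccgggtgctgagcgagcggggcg
Dusp6 (chr7:35979354-35979653, + strand): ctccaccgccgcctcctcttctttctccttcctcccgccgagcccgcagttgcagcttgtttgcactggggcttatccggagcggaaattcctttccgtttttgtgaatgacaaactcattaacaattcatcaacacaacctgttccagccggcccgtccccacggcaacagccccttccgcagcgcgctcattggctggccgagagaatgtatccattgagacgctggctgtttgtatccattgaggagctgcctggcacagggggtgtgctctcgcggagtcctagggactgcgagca
Phlda1 (chr7:48853440-48853739, + strand): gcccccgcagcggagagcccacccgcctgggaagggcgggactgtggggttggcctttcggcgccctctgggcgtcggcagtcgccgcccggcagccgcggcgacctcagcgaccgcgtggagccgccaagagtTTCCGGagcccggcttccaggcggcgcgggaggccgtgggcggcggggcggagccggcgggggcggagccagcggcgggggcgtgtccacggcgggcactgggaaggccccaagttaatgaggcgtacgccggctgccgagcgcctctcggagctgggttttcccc
Dusp1 carried the CRE palindrome at -124 to -117 from the start and another copy of the core at -172 to -168. The core lies inside the palindrome, so these searches overlap. Dusp5 carried a pair of adjoining CArG boxes at -82 to -73 and -72 to -63, a CRE core on the opposite strand at -55 to -51 and an ETS core at 5 to 10. Phlda1 carried an ETS core at -116 to -111, and the Dusp6 window held none of the letters searched. That window was placed on a transcript start downstream of the start of the Dusp6 gene (35979502). Sequence upstream of 35979354 was not searched. Among 33469 promoters of the same length, the CRE palindrome occurred in 1.83%, the CRE core in 21.2%, the CArG box in 1.64% and the ETS core in 15%. Of the 10 member promoters, which belong to 9 of the 10 genes with Spry2 holding a pair, the CRE palindrome and the CArG box were each in 1. The CRE core was in 4, those of Dusp1, Dusp2, Dusp5 and Spry2, and the ETS core was in 4, those of Dusp5, Phlda1, Spry2 and Spry4. The AP-1 motif TGANTCA, present in 7.33% of promoters, was in 0 of the 10. A match describes the letters in this window, not a bound site.

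Values are log2 signals normalized by RMA, so a difference of 1 is a 2-fold change, and levels of different genes are not compared because each probe set has its own response. Array medians lay between 5.56 and 5.65, and any pair of arrays correlated at 0.966 to 0.987 over all transcripts. A dim level of 5.85, the 95th percentile of 70 olfactory receptor transcripts, was used as a mark of background. Dusp1, Dusp6, Spry2, Spred1 and Phlda1 exceeded it on all 15 arrays, Dusp2 on 14, Dusp4 on 12, Spry1 and Spry4 on 8 each, and Dusp5 on 1. Of 10 markers of striatal projection neurons, 9 were measured, and all 9 lay above the dim level (7.77 to 11.9). Mean signals of cortical neuron markers were 7.87 ± 0.24 in Normal, 7.27 ± 0.27 in PD, 6.73 ± 0.52 in LID, 6.37 ± 0.43 in LID + Vehicle and 6.43 ± 0.59 in LID + PD98059 (mean ± SD of the mean over 6 measured genes, n = 3 rats), and 4 of the 6 genes had means over the dim level. Fewer cells of a type, less RNA per cell and less neighbouring tissue, such as cortex, in the dissected piece cannot be told apart in such bulk tissue.

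LID + Vehicle replicate 1 stood apart for the ERK feedback genes. It was the highest of the 15 arrays for 8 of the 10 members (80%), whereas it was the highest for 7.84% of all transcripts and for 10.9% of those above the dim level. The exceptions were Dusp4, where it was rank 2, and Spred1, where it was rank 3. In comparisons with LID + Vehicle, the counts past the unadjusted threshold and the medians are therefore also given without it.

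**Figure D1:**
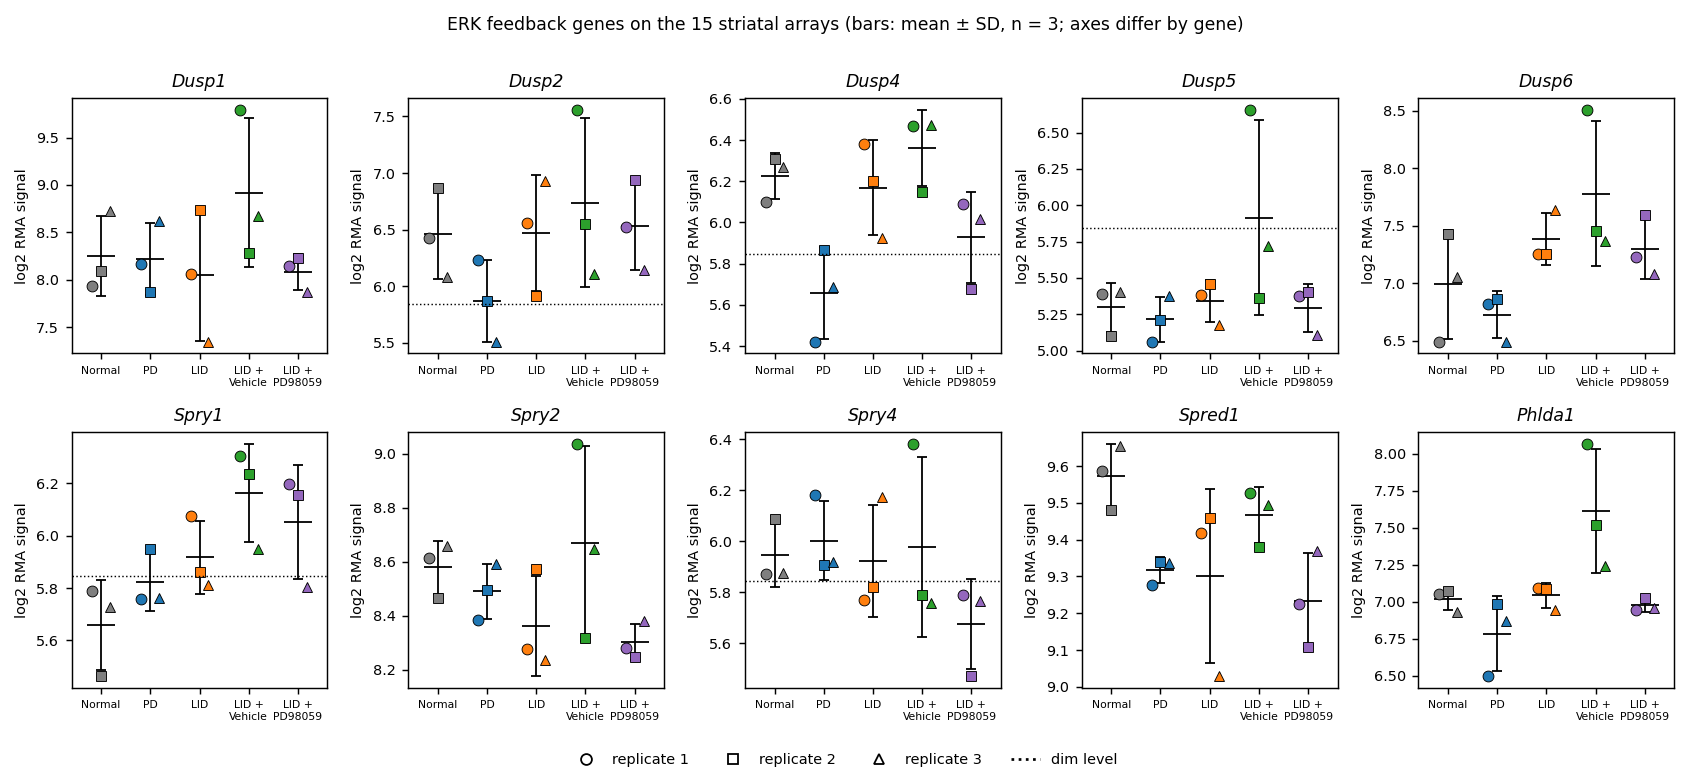
Log2 RMA signal (vertical axis, scaled for each gene) of the 10 ERK feedback genes on the 3 arrays of each group, with bars for mean ± SD and a dotted line at the dim level of 5.85. The green circle, LID + Vehicle replicate 1, is the highest of the 15 points for 8 of the 10 genes.

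Dusp1 encodes a nuclear phosphatase, also called MKP-1, that acts on p38, JNK and ERK and is induced within minutes by stress and neuronal activity. Its log2 signals in replicates 1, 2 and 3 were 7.94, 8.09 and 8.73 in Normal, 8.17, 7.87 and 8.62 in PD, 8.06, 8.73 and 7.35 in LID, 9.80, 8.28 and 8.68 in LID + Vehicle, and 8.15, 8.23 and 7.87 in LID + PD98059. One vehicle rat was 1.06 above the next highest array, the 3 LID rats spanned the lowest array of the series and that of rank 2, and only the vehicle and PD98059 groups did not overlap.

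Dusp2 encodes a nuclear phosphatase of ERK best known from immune cells. Its signals were 6.42, 6.87 and 6.08 in Normal, 6.23, 5.87 and 5.51 in PD, 6.56, 5.92 and 6.93 in LID, 7.56, 6.55 and 6.10 in LID + Vehicle, and 6.53, 6.94 and 6.15 in LID + PD98059. PD had the lowest mean (5.87 ± 0.36, against 6.46 ± 0.40 in Normal, mean ± SD, n = 3), but its highest rat lay within every other group.

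Dusp4 encodes MKP-2, a nuclear phosphatase of ERK and JNK that ERK signalling itself induces. Its signals were 6.10, 6.31 and 6.27 in Normal, 5.42, 5.87 and 5.69 in PD, 6.38, 6.20 and 5.93 in LID, 6.47, 6.15 and 6.47 in LID + Vehicle, and 6.09, 5.68 and 6.02 in LID + PD98059. All 3 PD rats lay below every Normal, LID and LID + Vehicle rat. The groups ran in the order LID + Vehicle (6.36 ± 0.19), Normal (6.22 ± 0.11), LID (6.17 ± 0.23), LID + PD98059 (5.93 ± 0.22) and PD (5.66 ± 0.22), and each neighbouring pair in that order overlapped.

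Dusp5 encodes a nuclear phosphatase specific for ERK. Its signals were 5.39, 5.10 and 5.40 in Normal, 5.06, 5.21 and 5.37 in PD, 5.38, 5.46 and 5.18 in LID, 6.66, 5.36 and 5.72 in LID + Vehicle, and 5.37, 5.40 and 5.11 in LID + PD98059. Only LID + Vehicle replicate 1 exceeded the dim level, so on the other 14 arrays the differences of this gene lie within the range of background.

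Dusp6 encodes MKP-3, the cytoplasmic phosphatase of ERK, whose transcript is widely used as a readout of ERK activity. Its signals were 6.49, 7.43 and 7.05 in Normal, 6.82, 6.87 and 6.49 in PD, 7.25, 7.26 and 7.64 in LID, 8.51, 7.46 and 7.37 in LID + Vehicle, and 7.23, 7.59 and 7.09 in LID + PD98059. All 9 rats given L-DOPA lay above all 3 PD rats, whereas the Normal rats spread over both. The means ran in the order LID + Vehicle (7.78 ± 0.63), LID (7.38 ± 0.22), LID + PD98059 (7.30 ± 0.26), Normal (6.99 ± 0.47) and PD (6.73 ± 0.20), with overlap between all neighbours.

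The Sprouty proteins restrain signalling from receptor tyrosine kinases to Ras. Spry1 signals were 5.79, 5.46 and 5.73 in Normal, 5.76, 5.95 and 5.76 in PD, 6.08, 5.86 and 5.81 in LID, 6.31, 6.24 and 5.95 in LID + Vehicle, and 6.20, 6.15 and 5.80 in LID + PD98059. All 3 Normal rats lay under the dim level, and the highest means were those of LID + Vehicle (6.16 ± 0.19) and LID + PD98059 (6.05 ± 0.22). Spry2 signals were 8.61, 8.47 and 8.66 in Normal, 8.39, 8.50 and 8.59 in PD, 8.28, 8.57 and 8.24 in LID, 9.04, 8.32 and 8.65 in LID + Vehicle, and 8.28, 8.25 and 8.38 in LID + PD98059. Apart from the first vehicle rat, which was 0.38 above the next array, the groups lay close together. Spry4 signals were 5.87, 6.09 and 5.87 in Normal, 6.18, 5.91 and 5.92 in PD, 5.77, 5.82 and 6.17 in LID, 6.38, 5.79 and 5.76 in LID + Vehicle, and 5.79, 5.47 and 5.77 in LID + PD98059. All 3 PD98059 rats lay under the dim level and below all 3 PD rats.

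Spred1 encodes a relative of the Sprouty proteins that brings neurofibromin, an inhibitor of Ras, to the membrane. Its signals were 9.59, 9.48 and 9.65 in Normal, 9.28, 9.34 and 9.34 in PD, 9.42, 9.46 and 9.03 in LID, 9.53, 9.38 and 9.49 in LID + Vehicle, and 9.22, 9.11 and 9.37 in LID + PD98059. The Normal rats lay above every PD, LID and LID + PD98059 rat, and the whole range over the 15 arrays was 0.62, the smallest among the members.

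Phlda1 encodes a protein with a pleckstrin homology-like domain, and growth factors and ERK signalling induce it. Its signals were 7.05, 7.07 and 6.93 in Normal, 6.50, 6.98 and 6.87 in PD, 7.09, 7.09 and 6.95 in LID, 8.07, 7.52 and 7.24 in LID + Vehicle, and 6.95, 7.02 and 6.96 in LID + PD98059. The 3 vehicle rats were the 3 highest of the 15 arrays. Below LID + Vehicle (7.61 ± 0.42) came LID (7.04 ± 0.08), Normal (7.02 ± 0.08), LID + PD98059 (6.98 ± 0.04) and PD (6.78 ± 0.25), and these other 4 groups overlapped with their neighbours.

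**Figure D2:**
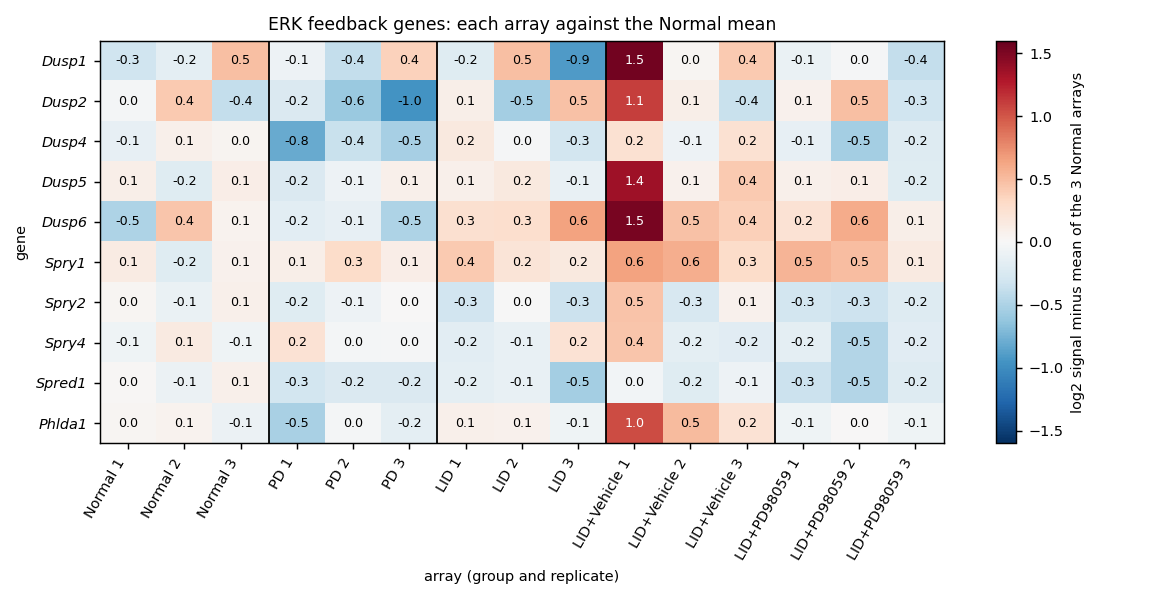
Log2 signal of each gene (rows) on each array (columns, by group and replicate) minus the mean of the 3 Normal arrays, with red for higher and blue for lower. The column of LID + Vehicle replicate 1 is red for Dusp1, Dusp2, Dusp5, Dusp6 and Phlda1, and all 3 PD columns are blue for Dusp4.

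Differences came from 1 limma fit to the 15 arrays, which gave every group its own mean but estimated a common spread, and its tests were two-sided. Calls required an adjusted p under 0.05 and a fold change of 1.2 or more. The unadjusted threshold applied the same limit of 0.05 to the p before adjustment, again together with the fold limit. Fitted to all 15 arrays, no member was called in any of the 7 comparisons, and 0.1 is the smallest p that an exact permutation of 3 against 3 rats allows. Comparisons that share a group share its rats and are not independent of each other. Over all 5 groups, the limma F test called 0 of 10 members after adjustment (0.191% of all transcripts were called). Before adjustment 4 members passed 0.05, against 10.1% of all transcripts, namely Phlda1 (adjusted p = 0.252), Dusp4 (adjusted p = 0.257), Spry1 (adjusted p = 0.415) and Dusp6 (adjusted p = 0.438).

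**Figure D3:**
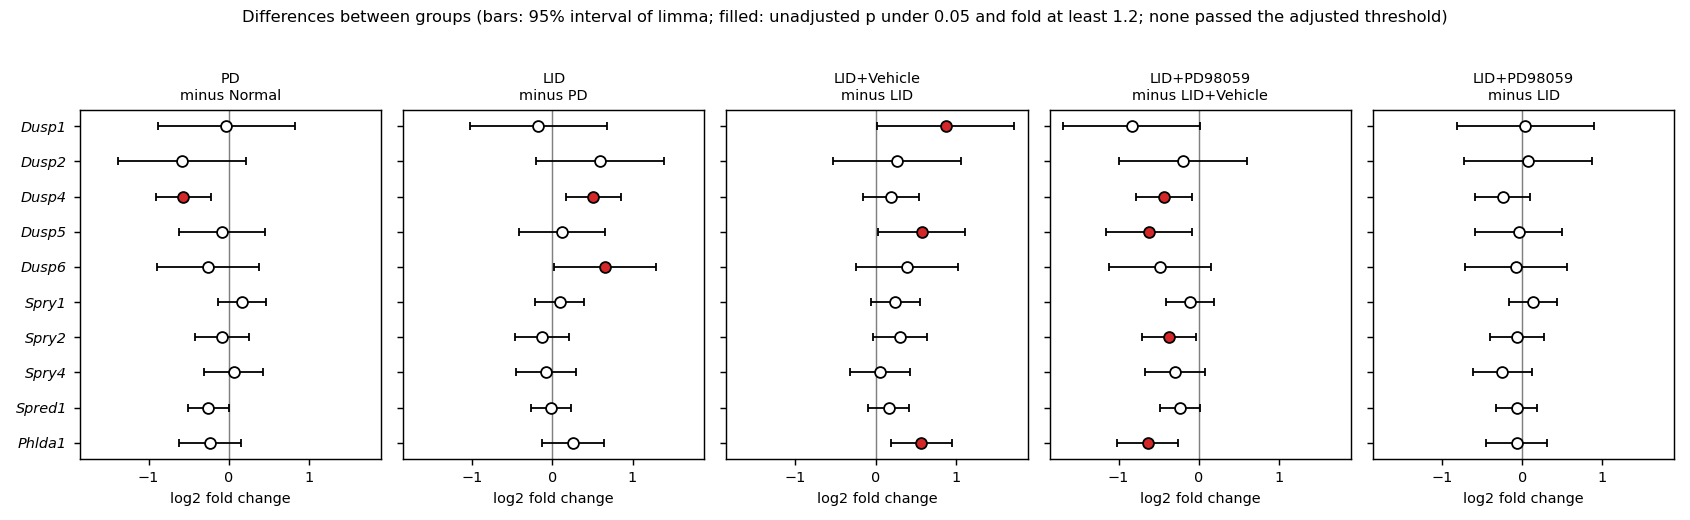
Log2 fold change (horizontal axis) of each gene in 5 comparisons, with the 95% interval of limma. Filled points passed the unadjusted threshold: Dusp4 in 3 comparisons, Phlda1 and Dusp5 in 2, and Dusp1, Dusp6 and Spry2 in 1 each. None passed the adjusted threshold.

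The first comparison set the untreated lesion against the sham operation. Dusp4 was 1.48-fold lower in PD than in Normal (log2 fold change -0.57, SE 0.16, 95% interval -0.91 to -0.22, adjusted p = 0.864). Spred1 was 1.19-fold lower (log2 fold change -0.26), short of the fold limit. Both were lower in 3 of 3 PD rats than in any Normal rat (exact permutation p = 0.1). Dusp2 had a log2 fold change of -0.59 without passing (95% interval -1.39 to 0.21). In all, 8 of the 10 members had a lower mean in PD, where 48.3% of all transcripts did, with a median log2 fold change of -0.16 over the members and 0.01 over all transcripts. Limma called 0 of 10 members (0% of all transcripts), and 1 member, Dusp4, passed the unadjusted threshold, against 4.31% of all transcripts in either direction and 1.95% lower. Without overlap there were 2 of 10 members, both lower. Of all transcripts 4.58% were lower without overlap. Dusp4 stayed past the unadjusted threshold without any 1 of the 6 arrays. PD replicates 1 and 3 lay under the dim level, and with values under that level set to it the difference of Dusp4 was -0.37. All 6 measured cortical neuron markers were lower in PD than in Normal, 3 past the unadjusted threshold, with a median of -0.73. All 10 measured oligodendrocyte markers were higher, 4 past it, with a median of 0.34. The part of these shifts in the member differences was not tested.

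L-DOPA after the lesion was compared with the untreated lesion. Dusp6 was 1.58-fold higher in LID than in PD (log2 fold change 0.66, SE 0.29, 95% interval 0.02 to 1.29, adjusted p = 0.546), and Dusp4 was 1.43-fold higher (0.51, SE 0.16, 95% interval 0.17 to 0.86, adjusted p = 0.441). For both genes all 3 LID rats lay above all 3 PD rats (exact permutation p = 0.1). Phlda1 and Dusp2 had log2 differences of 0.26 and 0.60 with overlap, while Dusp1, Spry2, Spry4 and Spred1 had differences from -0.18 to -0.02. Limma called 0 of 10 members (0.00545% of all transcripts), and 2 passed the unadjusted threshold, both higher, against 8.17% of all transcripts in either direction and 3.48% higher. The same 2 were the members higher without overlap, where 6.00% of transcripts were. The median log2 fold change was 0.11 over the members and -0.03 over all transcripts. Dusp4 stayed past the unadjusted threshold without any 1 array, whereas Dusp6 lost it without each of the 6 arrays in turn. With values under the dim level set to it, the difference of Dusp4 was 0.32. Mean signals of reactive astrocyte markers were 6.91 ± 0.12 in PD and 7.91 ± 0.78 in LID (12 genes, n = 3). Of 12 microglia markers 10 were higher in LID, with a median of 0.80. All 6 measured cortical neuron markers were lower, with a median of -0.62, and 0 of either list passed the unadjusted threshold. The part of these shifts in the member differences was not tested.

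Vehicle infusion was then set against L-DOPA without infusion, a comparison of controls. Phlda1 was 1.48-fold higher in LID + Vehicle than in LID (log2 fold change 0.57, SE 0.18, 95% interval 0.19 to 0.95, adjusted p = 0.9999), with all 3 vehicle rats above all 3 LID rats. Dusp1 was 0.87 higher in log2 (SE 0.39) and Dusp5 0.57 (SE 0.25), each with overlap and each led by the same vehicle rat. All LID values of Dusp5 lay under the dim level, and with values under it set to it the difference was 0.27. Of 12 reactive astrocyte markers 11 were higher in LID + Vehicle, 3 past the unadjusted threshold, with a median of 0.87, and their part in the member differences was not tested. All 10 members had a higher mean in LID + Vehicle, where 47.7% of all transcripts did, with a median log2 fold change of 0.29 over the members and -0.01 over all transcripts. Limma called 0 of 10 members (0% of all transcripts), and 3 passed the unadjusted threshold, all higher, against 3.68% of all transcripts in either direction and 1.85% higher. Phlda1 was the 1 member higher without overlap, against 3.79% of all transcripts. Without LID + Vehicle replicate 1 the 3 became 1, Phlda1 (0.34), the median became 0.14, and 8 members were higher, while 3.84% of all transcripts passed in either direction and 2.04% higher. Leaving out LID replicate 1 or LID replicate 3 also left only 1 member past the unadjusted threshold.

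PD98059 was set against its vehicle to ask how the feedback genes stood under MEK inhibition, in rats that were all dyskinetic before the infusions. Phlda1 was 1.55-fold lower in LID + PD98059 than in LID + Vehicle (log2 fold change -0.64, SE 0.18, 95% interval -1.02 to -0.25, adjusted p = 0.966). Dusp5 was 1.54-fold lower (-0.62, SE 0.25), Dusp4 1.35-fold lower (-0.43, SE 0.16) and Spry2 1.29-fold lower (-0.37, SE 0.16), and these 4 passed the unadjusted threshold. Dusp1 was 1.78-fold lower without passing (-0.83, 95% interval -1.69 to 0.02). Dusp6, the ERK phosphatase of the cytoplasm, differed by -0.48 (95% interval -1.11 to 0.16) and overlapped. The means of all 10 members were lower with PD98059, where 46.8% of all transcripts were lower, and the median log2 fold change was -0.40 over the members and 0.01 over all transcripts. After adjustment limma called 0 of 10 members (0% of all transcripts), and 4 passed the unadjusted threshold, all lower, against 4.44% of all transcripts in either direction and 2.12% lower. Dusp1, Dusp4, Spred1 and Phlda1, 4 of 10 members, were lower without overlap (exact permutation p = 0.1 each), against 4.18% of all transcripts. For Dusp5, values set to at least the dim level gave a difference of -0.27. All 12 reactive astrocyte markers had lower means with PD98059 (median -0.52, 0 past the unadjusted threshold). All 10 measured oligodendrocyte markers had higher means (median 0.16, 1 past it). The part of these shifts was not tested.

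These counts depended on LID + Vehicle replicate 1. Without it, 1 member passed the unadjusted threshold, Phlda1 (-0.41), against 3.83% of all transcripts, and the median over the members went from -0.40 to -0.19. The difference of Dusp1 went from -0.83 to -0.39, that of Dusp5 from -0.62 to -0.25 and that of Dusp6 from -0.48 to -0.11, while that of Dusp4 went from -0.43 to -0.38. The means of 9 members stayed lower with PD98059, and Dusp2 became 0.21 higher. Phlda1 passed the unadjusted threshold without any 1 of the 6 arrays. Dusp4 lost it without LID + PD98059 replicate 2, LID + Vehicle replicate 1 or LID + Vehicle replicate 3, Dusp5 without LID + PD98059 replicate 3 or LID + Vehicle replicate 1, and Spry2 without LID + PD98059 replicate 1 or 2 or LID + Vehicle replicate 1 or 3.

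**Figure D4:**
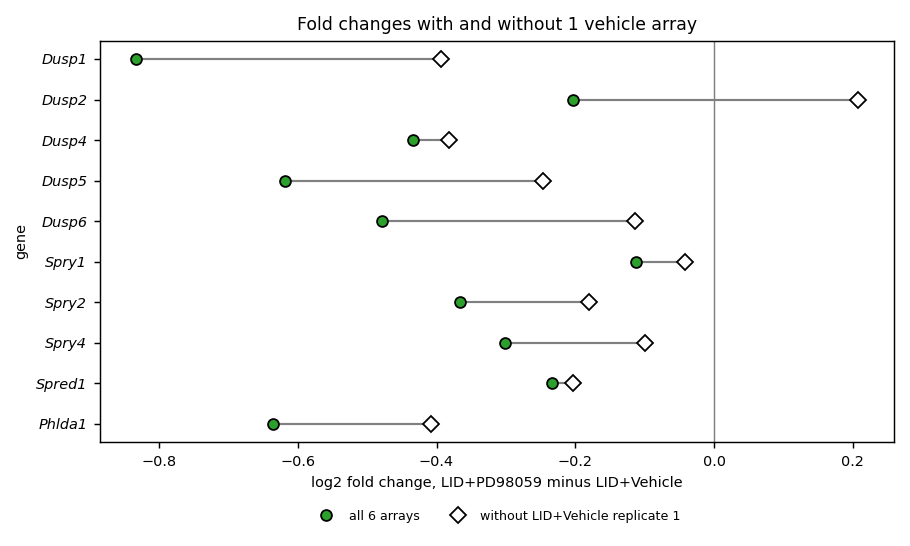
Log2 fold change of LID + PD98059 against LID + Vehicle (horizontal axis) for each gene, with all 6 arrays (filled circles) and without LID + Vehicle replicate 1 (open diamonds). Dusp1 moves from -0.83 to -0.39 and Dusp2 crosses 0, while Dusp4 moves from -0.43 to -0.38.

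The PD98059 rats were also compared with LID rats that had no infusion. The log2 fold changes ran from -0.25 (Spry4, 95% interval -0.62 to 0.13) and -0.24 (Dusp4, -0.59 to 0.10) to 0.13 (Spry1, -0.17 to 0.44). With values under the dim level set to it, Spry4 was at -0.11 and Dusp4 at -0.18. The fold change of Phlda1 was -0.07 (-0.45 to 0.31) and that of Dusp6 -0.08 (-0.72 to 0.55). Limma called 0 of 10 members (0% of all transcripts), and 0 passed the unadjusted threshold, against 4.74% of all transcripts. The groups overlapped for all 10 members, while 9.96% of all transcripts did not overlap. Means were lower for 7 members, as for 49.4% of all transcripts, and the median was -0.06 over the members and 0.0026 over all transcripts. The intervals were widest for Dusp1 (-0.81 to 0.89) and Dusp2 (-0.73 to 0.86).

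Both infused groups were also set against the untreated lesion. In LID + Vehicle, Phlda1 was 1.77-fold (log2 fold change 0.83, SE 0.18, adjusted p = 0.162), Dusp6 2.07-fold (1.05, SE 0.29, adjusted p = 0.261) and Dusp4 1.63-fold (0.70, SE 0.16, adjusted p = 0.175) higher than in PD, all without overlap. Dusp2, Dusp5 and Spry1 passed the unadjusted threshold as well, 0.87, 0.70 and 0.34 higher in log2 with overlap. With values under the dim level set to it, the differences were 0.27 for Dusp5, 0.28 for Spry1 and 0.51 for Dusp4. In the same comparison all 12 reactive astrocyte markers were higher, 11 of them past the unadjusted threshold, with a median of 1.62, the microglia markers had a median of 1.06, and all 6 cortical neuron markers were lower with a median of -1.04. Their part in the member differences was not tested. None of the 10 was called after adjustment (0.0245% of all transcripts), and 6 of 10 passed the unadjusted threshold, against 9.38% of all transcripts in either direction and 3.89% higher. The groups did not overlap for 4 of 10 members, Spred1 being the fourth, against 6.69% of transcripts higher without overlap. Without LID + Vehicle replicate 1 the 6 became 3, Dusp4 (0.65), Dusp6 (0.69) and Phlda1 (0.60), against 6.95% of all transcripts in either direction and 2.83% higher, and the median went from 0.70 to 0.30 (-0.03 over all transcripts with the array). Dusp2 also lost the unadjusted threshold without PD replicate 2 or 3, and Spry1 without PD replicate 1 or 3 or LID + Vehicle replicate 2. Without LID + Vehicle replicate 3, Phlda1 was the only member called after adjustment (1.01). The share of all transcripts called in that fit was not computed, and LID + Vehicle replicate 1 was 1 of its 2 vehicle rats. In LID + PD98059, Dusp6 was 0.57 higher than in PD (95% interval -0.06 to 1.21) and Dusp2 0.67 higher with overlap, while Spry4 had a log2 fold change of -0.33 and Spry2 of -0.19. With values under the dim level set to it, that of Spry4 was -0.16. All 12 reactive astrocyte markers were higher than in PD, 7 past the unadjusted threshold, with a median of 1.31. All 12 microglia markers were higher too, with a median of 0.99. Of 6 cortical neuron markers 5 were lower, 4 of them past the unadjusted threshold, with a median of -0.96. The part of these shifts was not tested. After adjustment 0 of 10 were called (0.00273% of all transcripts) and 0 passed the unadjusted threshold, against 7.18% of all transcripts. Dusp6, Spry2 and Spry4 did not overlap between these groups, against 14.4% of all transcripts.

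Averaged over the 10 genes, the signal was 7.83, 7.10 and 7.14 in the LID + Vehicle rats, 6.93, 7.04 and 7.04 in Normal, 7.03, 7.04 and 6.92 in LID, 6.98, 6.98 and 6.85 in LID + PD98059, and 6.78, 6.84 and 6.82 in PD. The 3 vehicle rats were thus the 3 highest of the series and the 3 PD rats the 3 lowest, with the first vehicle rat far above the other two. Other gene lists were also high or low on that array. The mean of 23 ERK-responsive transcription factors was 7.63 on it and at most 7.05 elsewhere, and that of 14 other inhibitors of Ras-ERK signalling was 7.81, its highest. Mean signals of reactive astrocyte markers (12 of 12 measured, 11 above the dim level) were 9.92 on it, 9.40 and 7.72 in the other vehicle rats and 7.46 to 9.44 with PD98059. Microglia markers (12 of 12 above the dim level) were 9.43, the highest of 15 arrays. Striatal projection neuron markers were 9.60, rank 14 of 15, and oligodendrocyte markers 9.73, also rank 14. The part of these shifts in the member differences was not tested.

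**Figure D5:**
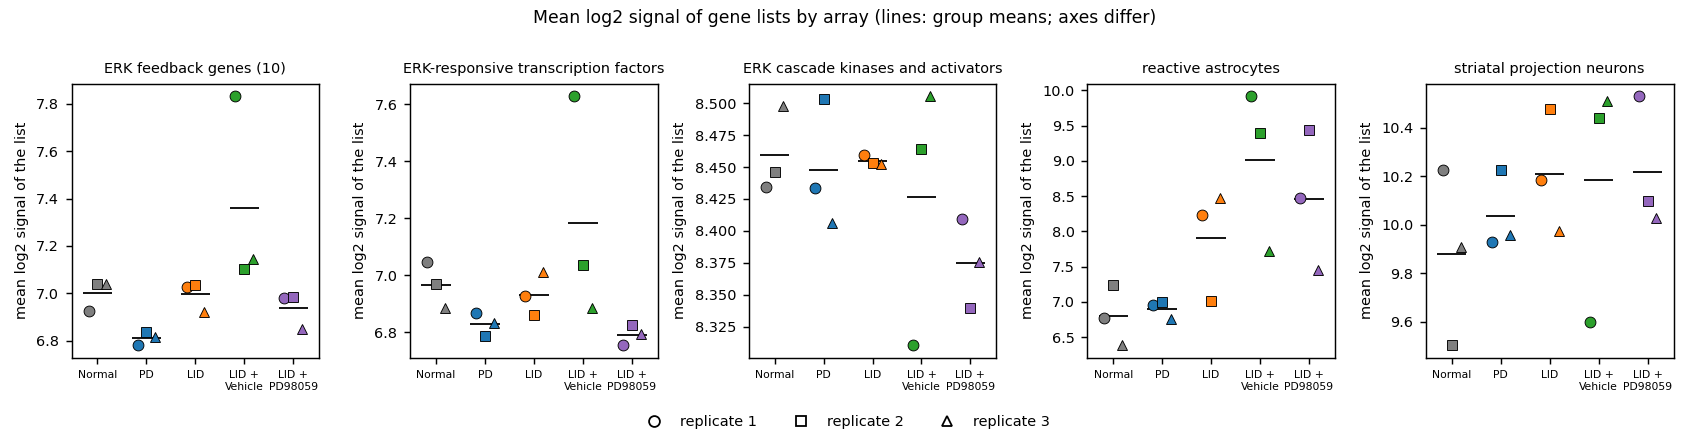
Mean log2 signal of 5 gene lists (vertical axes, scaled for each list) on the 3 arrays of each group, with lines for group means. LID + Vehicle replicate 1 is the highest array for the ERK feedback genes (7.83), ERK-responsive transcription factors (7.63) and reactive astrocyte markers (9.92), and the lowest for ERK cascade genes (8.31).

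How far the members varied together was described by correlating each with the mean of the other 9 over the 15 arrays, which share normalization and, in part, the standing of 1 array. The correlation was highest for Dusp5 (r = 0.91) and Phlda1 (r = 0.89), followed by Dusp6 (0.74), Dusp1 (0.66) and Spry2 (0.62), and lowest for Spred1 (0.30). Without LID + Vehicle replicate 1 it was 0.68 for both Phlda1 and Dusp4, 0.55 for Dusp5 and 0.34 for Dusp6, but 0.05 for Dusp1, -0.05 for Spry2 and -0.52 for Spry4. Among 10895 other named transcripts above the dim level, the 8 most like the mean profile of the members over the 15 arrays were Ano6, Pi4k2a, Zmiz1, Trib1, Pvr, Gadd45g, Nck1 and Bzw1 (r from 0.90 to 0.93, Spearman's rho from 0.55 to 0.78). Without the 2 arrays farthest from the median of that profile, r was 0.34 for Ano6 and 0.69 for both Zmiz1 and Bzw1. Gadd45g, a growth arrest gene, was at 8.18 on LID + Vehicle replicate 1 and at most 6.67 elsewhere, and Trib1, a pseudokinase gene, at 8.59 and at most 7.22.

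Neighbours of the members in the same pathway were read from 4 lists, and 0 of their genes were called by limma after adjustment in any of the 7 comparisons. ERK activity itself was not measured on these arrays. Among ERK-responsive transcription factors, 19 of 23 were lower in LID + PD98059 than in LID + Vehicle, with a median of -0.40. In that comparison 7 passed the unadjusted threshold, all lower (2.12% of all transcripts did). The log2 fold change was -0.86 for Fosb (SE 0.18, adjusted p = 0.966) and -0.58 for Egr1 (SE 0.16, adjusted p = 0.966), both immediate early genes, and without LID + Vehicle replicate 1 it was -0.74 and -0.44. Without LID + Vehicle replicate 1, a recount of these lists chosen after seeing the data, 16 of 23 were lower, 4 passed and the median was -0.21. In LID + Vehicle against LID 19 of 23 were higher with a median of 0.33 and 4 passed, all higher. When that array was left out this became 14 of 23 with a median of 0.08, 0 passed higher and 1 passed lower. In LID against PD 15 of 23 were higher with a median of 0.13, and Fosb was at 0.05 and Egr1 at 0.04. Against LID, Fosb had a log2 fold change of -0.53 with PD98059 (adjusted p = 0.915). The paper states that only 1 of 4 probes for FosB rose with L-DOPA and fell with PD98059. Here Fosb was read from the brightest transcript with that symbol alone.

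Of 14 other inhibitors of Ras-ERK signalling, 11 were lower with PD98059 than with vehicle (median -0.13), and 1 passed the unadjusted threshold. It was Errfi1, a feedback inhibitor of the EGF receptor, at 9.41 with vehicle and 8.59 with PD98059 (log2 fold change -0.82, SE 0.24, adjusted p = 0.966). Errfi1 was also 0.64 higher with vehicle than in LID, past the unadjusted threshold. These differences of Errfi1 without LID + Vehicle replicate 1 were -0.50, still past the unadjusted threshold, and 0.33, no longer past it. Spry3, the remaining Sprouty gene on the list, differed by -0.36 with PD98059 from vehicle, and between LID and PD by -0.55 (adjusted p = 0.462), while the members Spry1, Spry2 and Spry4 differed there by 0.09, -0.13 and -0.08. Of 9 measured MAP kinase phosphatases outside the 10, 5 were lower with PD98059 than with vehicle and the median was -0.04. The 2 that passed were Dusp26 (-0.53, SE 0.17) and Dusp16, a phosphatase of JNK and p38 (-0.30, SE 0.09). Among 18 kinases, adapters and exchange factors of the cascade itself, 11 were lower (median -0.10), and Grb2, the adapter that links receptors to Ras activation, passed (-0.32), while Sos1, an exchange factor of Ras, was at -0.26 and missed the fold limit. Leaving out LID + Vehicle replicate 1, 6 of the 9 phosphatases were lower with a median of -0.19 and 2 passed, Dusp26 (-0.37) and Dusp16 (-0.31). The inhibitors then had 9 of 14 lower with a median of -0.04 and 1 passed, and the cascade genes 12 of 18 lower with a median of -0.14 and 0 passed, Grb2 being at -0.17.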

How the data were processed

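The authors deposited log2 signals, made by RMA in Expression Console (background adjustment, normalization between arrays, summary of probes) from Affymetrix arrays of the Rat Gene 2.0 ST type. The methods mention an exon level option and a median over the probes of a transcript, and the level of summary in the table is not stated. The values were used as deposited for 15 arrays, 1 per rat, with 0 missing values. Groups came from the sample labels.

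Gene symbols came from the annotation of the array platform, in which 575 transcripts had several symbols and 17599 had none. The members and gene lists were chosen with earlier results of these data known. Named genes are the 10 members, the 2 genes per pathway list with the smallest p for LID + PD98059 against LID + Vehicle, and the 8 transcripts most like the members' mean profile.

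Differences were tested with limma 3.58.1 in R 4.3.3 (lmFit and eBayes, two-sided, 5 group means in 1 fit over 15 arrays), adjusted over 36685 transcripts by the Benjamini-Hochberg method. The exact permutation test ran over the 20 splits of 6 arrays. The fit was tested on simulated data. Alternatives were a replicate block, a trended robust prior, fits to 6 arrays, removal of dim transcripts, median centring, quantile normalization, no fold threshold and leaving out each array. Figures were drawn in Python 3.11.15 with matplotlib 3.10.9. The number of arrays limits the precision.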

Additional observations from a re-analysis of the deposited data

How the results depend on the processing

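No difference of a member that passed the unadjusted threshold changed sign under any alternative. Of 420 member differences recomputed without 1 array, 28 changed sign, and of 413 under the other settings 2 did, all with a log2 size of at most 0.27. Same-number pairs of rats across groups were on average no more alike than different-number pairs. Over 30 same-number pairs the mean correlation of deviations was -0.0152, and 6 exceeded 0.1. Over 60 different-number pairs it was 0.00746, and 15 exceeded 0.1. A batch shared by some of the rats was not tested. With the replicate number as a block, the count past the unadjusted threshold in LID against PD went from 2 to 1, and other counts stayed within 1.5 times. Fitted to the 6 arrays of a comparison alone, the count went from 3 to 1 in LID + Vehicle against LID, from 4 to 2 in LID + PD98059 against LID + Vehicle, and from 0 to 3 in LID + PD98059 against PD. Without a fold threshold PD against Normal had 2 members in place of 1. The shares of all transcripts past the threshold were not computed in these alternative fits, so the counts describe the members alone. Removing dim transcripts took out 1 member, Dusp5, and the median over the remaining 9 members in PD against Normal became -0.23. Causes were not tested. The mean of all rows of a gene could not differ, since each member has 1 row. With the dim level at the 99th percentile of olfactory receptors (6.40), 6 members lay above it.

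Leaving out 1 array at a time, the counts past the unadjusted threshold ran from 1 to 2 in PD against Normal, 1 to 2 in LID against PD, 1 to 4 in LID + Vehicle against LID, 1 to 5 in LID + PD98059 against LID + Vehicle, 0 to 0 in LID + PD98059 against LID, 0 to 1 in LID + PD98059 against PD and 3 to 7 in LID + Vehicle against PD, and from 3 to 5 for the F test. Adjusted calls ran from 0 to 1 in LID + Vehicle against PD. In the same order the medians over the members ran from -0.20 to -0.065, 0.054 to 0.19, 0.14 to 0.47, -0.54 to -0.19, -0.12 to -0.02, 0.026 to 0.19 and 0.30 to 0.84. Of these fits, only that without LID + Vehicle replicate 1 had the share of all transcripts past the unadjusted threshold computed. The other counts have no such share beside them and describe the members alone.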
